A study of Mus musculus with 8 samples.

Results

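TRDV segments are variable (V) segments named for the T cell receptor (TCR) δ-chain, and here they were read in α-chain libraries, joined to joining (J) segments of the α-chain (TRAJ). Members were all α-chain clonotypes whose V name begins with TRDV, which gave 451 of 53249 α-chain clonotypes, with 624 reads, over 8 mice. A clonotype is 1 CDR3 nucleotide sequence with its V and J names in 1 mouse, and the CDR3 is the loop formed where V and J meet. The other 52798 clonotypes carry a TRAV name and were the comparison.

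The libraries were made from endogenous CD8+ T (en-T) cells, sorted as Thy1.1-negative and CD8-positive from pooled inguinal lymph nodes and spleen, of female C57BL/6 mice that were 6 to 8 weeks old when they were inoculated with B16F10 melanoma. Every mouse was given cyclophosphamide (CTX, which depletes lymphocytes) at 300 mg/kg on day 3, Thy1.1 Pmel-1 CD8+ T cells with a transgenic TCR on day 5, and 10000 IU of IL-2 daily for 3 days. The 3 CTXpre mice (labelled CTX) had nothing further, whereas the 5 CTXpre/CD4post mice (labelled CTX_CD4) were also given 200 μg of the anti-CD4 antibody GK1.5 on days 10, 17 and 24, and cells were taken on day 25. Each α-chain library held 10000 reads and 5043 to 7695 clonotypes, and each mouse gave 1 library.

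The δ-chain segments lie inside the α-chain locus, so that TRDV segments, the δ diversity (D) segments TRDD1 and TRDD2 and the TRAJ cluster share 1 stretch of mouse chromosome 14. A TRDV segment can recombine with δ D and J segments to make a δ-chain, or directly with a TRAJ segment, which for segments upstream of the δ genes deletes what lies in between. α-chain joins normally contain no D segment, and nucleotides added at the join by terminal transferase make up most of what neither V nor J accounts for.

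The germline ends of the TRDV segments are shown first because they separate segments whose names alone did not. They run from the cysteine codon that opens the CDR3 to the last coding base, were read 5′ to 3′ on the coding strand of GRCm38, and are given whole in lower case. TRDV1 is at chr14:53881612-53882217 on the + strand, TRDV2-1 at chr14:53946073-53946660 on the + strand, TRDV2-2 at chr14:53960944-53961602 on the + strand and TRDV5 at chr14:54148662-54149294 on the − strand. TRDD2, the D segment that recurs in the joins described further on, is at chr14:54122226-54122241 on the + strand.
TRDV1 end: tgtggagggaaag
TRDV2-1 end: tgtgcactcagggggagc
TRDV2-2 end: tgtgctctcatggagcgc
TRDV5 end: tgtgcctcggggtat
TRDD2: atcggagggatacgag

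TRDV1 supplied most members, with 299 clonotypes and 428 reads. TRDV2-2 was named in 83 clonotypes and 99 reads, and TRDV2-1 in 67 clonotypes and 95 reads, and these 3 segments were found in all 8 mice. TRDV5, which lies on the opposite strand beyond the δ D and J segments, was named in 2 clonotypes of 1 read each, 1 in CTXpre mouse 2 and 1 in CTXpre/CD4post mouse 3. TRDV4 was named in 0 clonotypes. Fewer than 3 reads (0.03% of 10000) were not taken as different from 0.

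The names TRDV2-1 and TRDV2-2 did not separate the segments. Of the 67 clonotypes named TRDV2-1, only 5 matched the TRDV2-1 end for longer than the TRDV2-2 end. For 61 of them the TRDV2-2 end was the longer match, and 1 matched both alike. Of the 83 named TRDV2-2, 69 carried the TRDV2-2 end and 14 the TRDV2-1 end. By sequence, 130 clonotypes carried the TRDV2-2 end and 19 the TRDV2-1 end. Both are therefore described together as TRDV2 wherever the distinction matters. TRDV1 had no such problem, since 294 of its 299 clonotypes matched at least 6 bases of its own end.

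The first residues of the CDR3 followed these ends. The CDR3 began with cysteine, glycine and glycine in 291 of 299 TRDV1 clonotypes (97.3%) and with cysteine, alanine and leucine in all 150 TRDV2 clonotypes. Of the 451 TRDV CDR3s, 8 lacked the usual opening cysteine or closing phenylalanine or tryptophan.

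The clonotypes that carry the findings below are printed next, from the CDR3 nucleotides in the deposited tables, named by their V and J segments. In the first 3, capitals mark nucleotides assigned to neither V nor J in the deposited positions. The TRDV2-TRAJ49 clonotype is shown because it was found in the most mice, the shared TRDV1-TRAJ45 clonotype because it was found in 3 mice, and the abundant TRDV1-TRAJ45 clonotype because it had the most reads.
TRDV2-TRAJ49, shared: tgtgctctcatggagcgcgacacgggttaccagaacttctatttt
TRDV1-TRAJ45, shared: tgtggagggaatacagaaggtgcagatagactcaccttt
TRDV1-TRAJ45, abundant: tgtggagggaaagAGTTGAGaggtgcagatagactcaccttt

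In the next 4, capitals mark the longest unbroken stretch shared with TRDD2 among the unassigned nucleotides, so bases assigned to V or J are not searched. They are shown because they hold the longest such stretches among the TRDV clonotypes.
TRDV2-TRAJ42, with TRDD2 stretch: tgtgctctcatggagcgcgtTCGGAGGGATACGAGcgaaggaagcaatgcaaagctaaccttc
TRDV1-TRAJ49, with TRDD2 stretch: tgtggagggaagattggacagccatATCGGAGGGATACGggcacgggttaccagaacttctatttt
TRDV2-TRAJ58, with TRDD2 stretch: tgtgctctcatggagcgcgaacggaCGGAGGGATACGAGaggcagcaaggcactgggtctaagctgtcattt
TRDV2-TRAJ57, with TRDD2 stretch: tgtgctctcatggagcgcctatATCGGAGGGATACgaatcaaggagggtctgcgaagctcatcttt

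TRDV reads made up a small share of each library, from 0.58% to 1.14%. The CTXpre mice 1 to 3 held 79, 60 and 58 TRDV reads, or 0.79%, 0.6% and 0.58% of 10000. The CTXpre/CD4post mice 1 to 5 held 114, 108, 77, 65 and 63 reads, or 1.14%, 1.08%, 0.77%, 0.65% and 0.63%. The groups overlapped, with CTXpre/CD4post mice 1 and 2 above every other mouse and mice 3 to 5 within the CTXpre range. The Wilson 95% interval ran from 0.449% to 0.749% in the lowest mouse and from 0.950% to 1.37% in the highest. Reads were amplified by PCR and no molecular identifiers are described, so intervals and floors cover counting error only.

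The CTXpre mice held 64, 51 and 39 TRDV clonotypes. The CTXpre/CD4post mice held 55, 90, 58, 46 and 48, so that mouse 2 stood apart with 90 and the others lay between the CTXpre values. Of all α-chain clonotypes, TRDV clonotypes were 0.888%, 0.673% and 0.556% in the CTXpre mice and 0.924%, 1.17%, 0.860%, 0.765% and 0.952% in the CTXpre/CD4post mice.

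**Figure D1:**
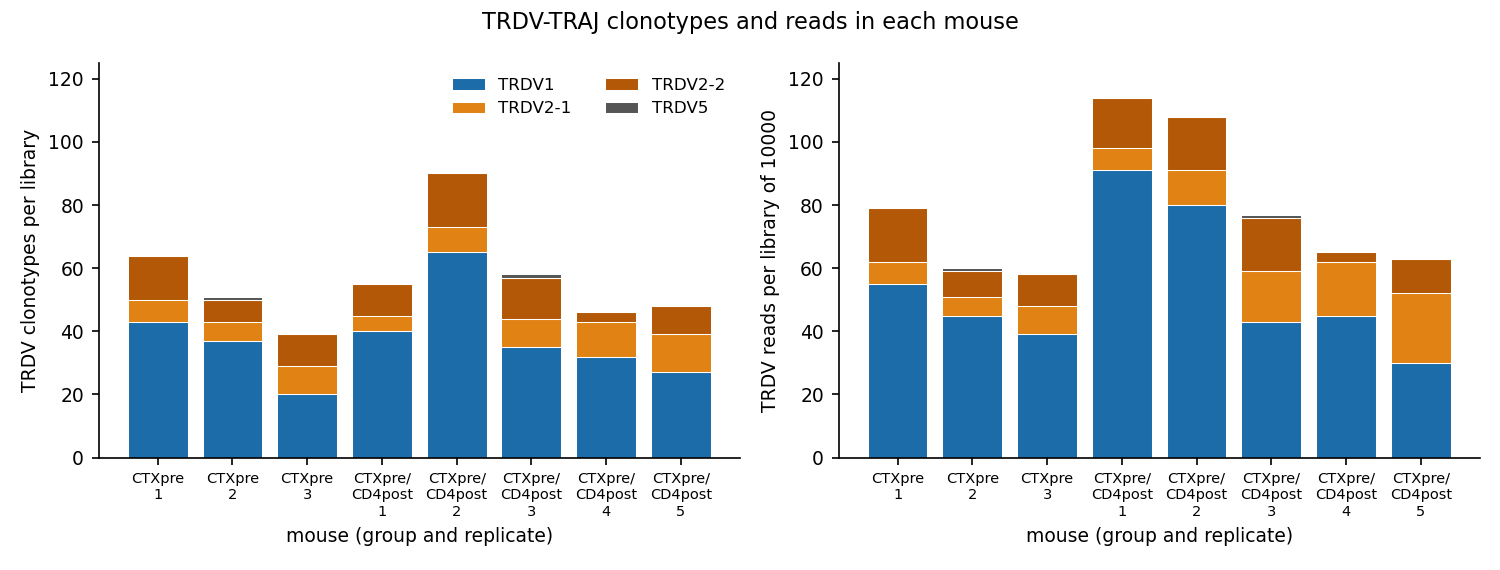
TRDV clonotypes (left) and TRDV reads out of 10000 (right) in each of the 8 mice, with the bars stacked by the deposited V name. TRDV1 is the largest block in every mouse, and CTXpre/CD4post mice 1 and 2 have the most reads, 114 and 108.

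The question of whether anti-CD4 treatment went with more or fewer TRDV joins was tested over mice. TRDV reads averaged 85.4 ± 24.1 (SD, n = 5) in CTXpre/CD4post mice and 65.7 ± 11.6 (SD, n = 3) in CTXpre mice, and an exact Mann–Whitney test, two-sided, gave p = 0.25 (adjusted p = 1 over 4 measures). TRDV clonotypes averaged 59.4 ± 17.8 against 51.3 ± 12.5, with exact p = 0.786 (adjusted p = 1). As a percent of the α-chain clonotypes of each library, they averaged 0.934% against 0.705% (exact Mann–Whitney p = 0.143). This scale was added after seeing the data. The smallest p that 3 mice against 5 allow is 0.0357. Neither difference in counts exceeded the spread between mice. In these sorted, pooled cells, fewer cells with a TRDV join and less TCR RNA per cell cannot be told apart. Replicates are separate mice per the labels.

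The single segments showed the same overlap between groups. TRDV1 had 55, 45 and 39 reads in the CTXpre mice and 91, 80, 43, 45 and 30 in the CTXpre/CD4post mice. TRDV2-1 had 7, 6 and 9 reads against 7, 11, 16, 17 and 22, so 4 of 5 CTXpre/CD4post mice were above the CTXpre range. TRDV2-2 had 17, 8 and 10 reads against 16, 17, 17, 3 and 11. No TRDV segment separated the groups.

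In edgeR's quasi-likelihood test, fitted over 103 V segments, no TRDV segment passed an adjusted p of 0.05. The share of the 103 segments called was 0%, with 6 at an unadjusted p under 0.05, and DESeq2 also called 0, with 6 at an unadjusted p under 0.05. Reads of the groups did not overlap in 6 of the 103 segments (5.83%), none of them a TRDV segment. The log2 difference in reads, CTXpre/CD4post minus CTXpre, was 0.33 ± 0.31 (SE) for TRDV1 with an edgeR adjusted p of 0.783. It was 1.00 ± 0.52 (SE) for TRDV2-1 with an edgeR adjusted p of 0.743. It was 0.14 ± 0.50 (SE) for TRDV2-2 with an edgeR adjusted p of 0.931. As the names are crossed, TRDV2-1 and TRDV2-2 were also summed, which gave 24, 14 and 19 reads against 23, 28, 33, 20 and 33. The summed log2 difference was 0.56 ± 0.32 (SE), with an edgeR adjusted p of 0.689. TRDV5 was below the filter on reads.

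TRAJ segments are numbered down towards the α-chain constant gene, so a high number means a TRAJ segment close to the V segments. TRDV clonotypes were joined mostly to high-numbered TRAJ segments. The 6 partners with the most TRDV clonotypes were TRAJ49 with 61, TRAJ58 with 55, TRAJ57 with 52, TRAJ56 with 44, TRAJ48 with 32 and TRAJ47 with 28. Together they took 272 TRDV clonotypes, which is 60.3% of TRDV and compares with 13.5% of TRAV clonotypes.

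TRDV clonotypes were found with 31 of the 43 TRAJ segments seen in any α-chain clonotype. TRAJ42 or a higher number was used by 369 TRDV clonotypes (81.8%), against 26.2% of TRAV clonotypes. TRAJ30 or a lower number was used by 16 (3.55%), against 50.8% of TRAV, and 11 of the 21 TRAJ segments in that range had no TRDV clonotype. The use of single partners varied between mice. TRAJ57 ran from 3.45% to 23.4% of a mouse's TRDV clonotypes, and TRAJ49 from 7.81% to 21.7%.

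TRAJ58, the highest-numbered TRAJ segment seen, illustrates the contrast. It took 11.8% ± 3.07 (SD, n = 8) of a mouse's TRDV clonotypes and 1.22% ± 0.130 of its TRAV clonotypes, and was higher in TRDV in 8 of 8 mice. Of all clonotypes with TRAJ58, 7.82% were TRDV clonotypes. Of those with TRAJ49, 2.77% were.

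**Figure D2:**
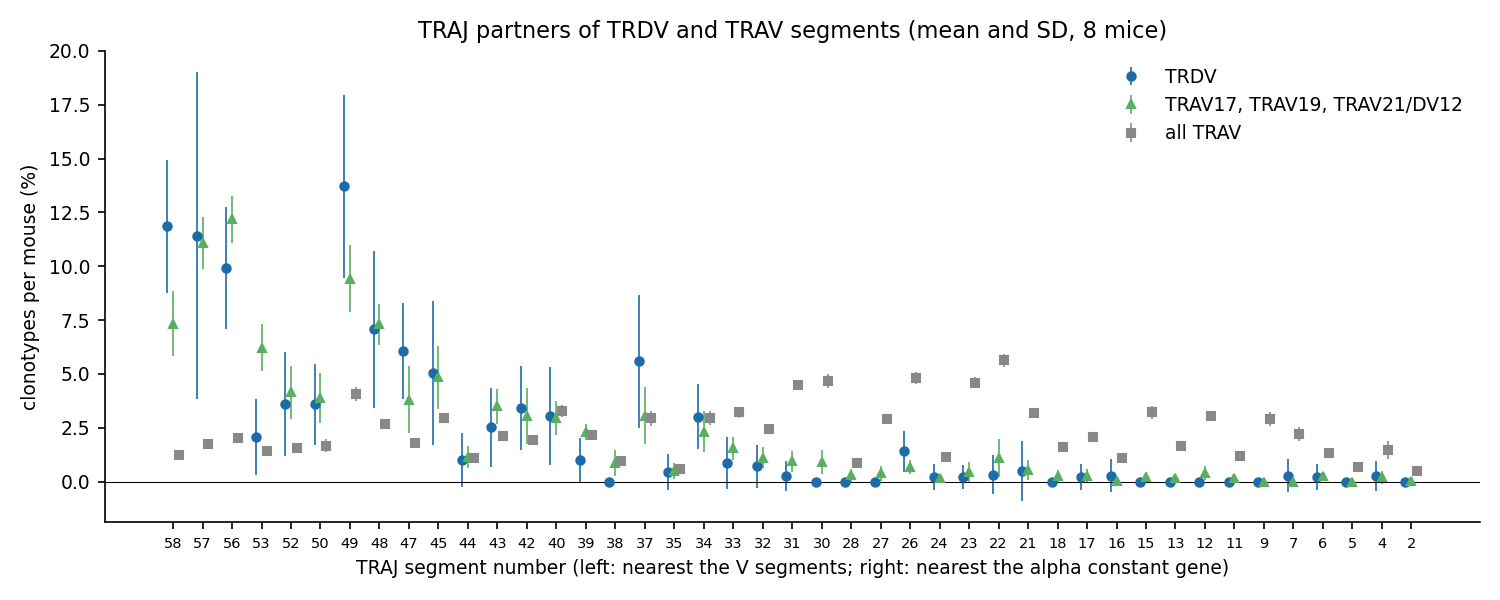
Share of clonotypes (%) joined to each TRAJ segment, in chromosome order, as the mean and SD over 8 mice for TRDV, for all TRAV and for TRAV17, TRAV19 and TRAV21/DV12, the 3 TRAV segments nearest TRAJ58 among those with at least 50 clonotypes. TRDV and the nearby TRAV segments are high on the left, where TRAJ58 takes 11.8% of TRDV clonotypes, and all TRAV are spread over the cluster.

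Mean TRAJ number was compared within each mouse. In the CTXpre mice it was 49.5, 46.7 and 48.3 for TRDV against 30.9, 29.7 and 30.0003 for TRAV. In the CTXpre/CD4post mice it was 48.7, 49.6, 46.2, 47.7 and 48.0 for TRDV against 30.9, 31.01, 29.2, 30.7 and 31.3 for TRAV. The ranges did not overlap, and TRDV was higher by 17.6 ± 0.788 (SD, n = 8), in 8 of 8 mice. An exact two-sided sign-flip test over the mice gave p = 0.00781, the smallest that 8 mice allow, and an adjusted p of 0.0130 over the 5 measures compared in this way.

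TRAV17, TRAV19 and TRAV21/DV12 lie nearest TRAJ58 among the TRAV segments with at least 50 clonotypes, and they also joined mostly high-numbered TRAJ segments. Their mean TRAJ number was 47.2, and TRDV was above it by 0.881 ± 1.54 (SD, n = 8), in 6 of 8 mice, with p = 0.156 in the exact sign-flip test. TRAJ42 or a higher number was used by 77.8% of their clonotypes. Single partners were further apart, without a test. TRAJ53 took 2.08% ± 1.77 (SD, n = 8) of TRDV clonotypes and 6.22% ± 1.09 of theirs, and TRAJ58 took 11.8% ± 3.07 and 7.33% ± 1.504. Dual-use segments, which are named both TRAV and DV and lie along the locus, averaged 36.9, and TRDV was higher by 11.2 ± 1.05 in 8 of 8 mice (exact p = 0.00781).

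Among the 103 V segments with at least 50 clonotypes, TRDV1 had the highest mean TRAJ number, 49.1, and lies 275 kb from TRAJ58. Ranks 2 and 3 were TRAV21/DV12 and TRAV19, at 281 and 311 kb. Clonotypes named TRDV2-2 ranked 4 with 46.6 and those named TRDV2-1 ranked 5 with 46.5. The segments of these names lie 196 and 211 kb from TRAJ58, but most clonotypes of either name carry the TRDV2-2 end, so the names do not place the clonotypes. By their ends, the mean was 46.6 for the 130 clonotypes with the TRDV2-2 end and 46.1 for the 19 with the TRDV2-1 end. Both means were below that of TRDV1, which lies further from TRAJ58, and this was not tested.

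**Figure D3:**
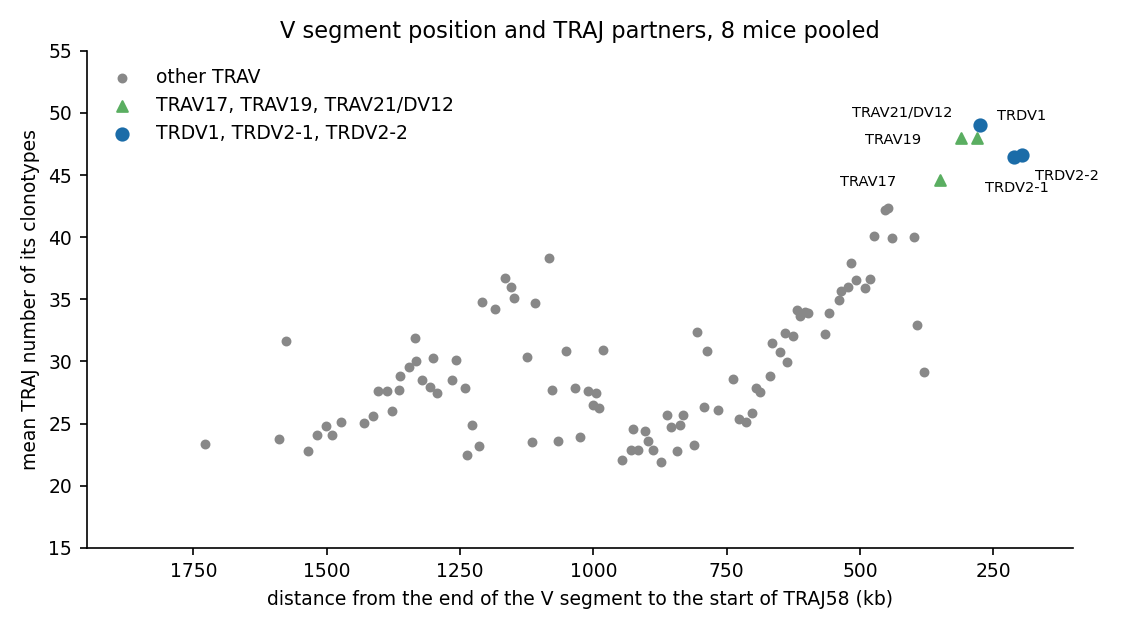
Mean TRAJ number of a V segment's clonotypes against the distance in kb from the end of the segment to TRAJ58, for 103 V segments with at least 50 clonotypes over 8 mice. The TRDV segments, at 275 kb or less, sit with their nearest TRAV neighbours at the top right, between 46.5 and 49.1 for TRDV. TRDV2-1 and TRDV2-2 are placed by their deposited names, which do not separate the segments.

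The CDR3 of TRDV clonotypes was longer than that of TRAV clonotypes, and the size of the difference depended on the segment. Mean CDR3 length of TRDV was 14.5, 14.4 and 14.8 residues in the CTXpre mice and 14.1, 14.2, 14.5, 14.4 and 14.7 in the CTXpre/CD4post mice. TRAV means lay between 13.6 and 13.7 residues in every mouse, below every TRDV mean. The difference was 0.790 ± 0.223 residues (SD, n = 8), in 8 of 8 mice, with exact sign-flip p = 0.00781 and adjusted p = 0.0130. With the median over clonotypes in place of the mean it was 0.125 (exact p = 1), as the median was 14 residues for both in most mice.

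TRDV1 CDR3s averaged 13.9 residues and TRDV2 CDR3s 15.5. Taken alone, TRDV1 was longer than TRAV by 0.247 ± 0.188 residues in 8 of 8 mice (exact p = 0.00781), and TRDV2 by 1.82 ± 0.250 in 8 of 8 mice (exact p = 0.00781). The germline end is 13 nucleotides in TRDV1 and 18 in TRDV2-1 and TRDV2-2. TRAV clonotypes weighted to the TRAJ partners of TRDV averaged 13.98 residues, and TRDV was then longer by 0.468 ± 0.210 in 8 of 8 mice (exact p = 0.00781). Against dual-use TRAV/DV segments alone, which averaged 14.6 residues, the direction turned, at −0.124 ± 0.230 (exact p = 0.188). A length above all TRAV was therefore not a length above the dual-use segments.

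Unassigned nucleotides, those between the last V base and the first J base in the deposited positions, were also more numerous in TRDV joins. Means were 2.34, 2.90 and 3.28 in the CTXpre mice and 2.38, 2.87, 2.97, 3.24 and 3.21 in the CTXpre/CD4post mice. TRAV means lay between 2.19 and 2.24. The difference was 0.691 ± 0.376 nucleotides (SD, n = 8), in 8 of 8 mice, with exact sign-flip p = 0.00781 and adjusted p = 0.0130. With medians it was 0.188 (exact p = 0.625). Taken alone, a split added after seeing the data, TRDV1 exceeded TRAV by 0.635 ± 0.692 in 6 of 8 mice (exact sign-flip p = 0.0469). TRDV2 exceeded it by 0.762 ± 0.758 in 6 of 8 mice (exact sign-flip p = 0.0313). Among the 103 V segments with at least 50 clonotypes, the names TRDV2-1, TRDV2-2 and TRDV1 ranked 4, 8 and 11 in the mean. The dual-use segment TRAV15D-1-DV6D-1 ranked 2 with 3.71.

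The share of joins with 0 unassigned nucleotides was close in the 2 classes, 27.9% of TRDV and 30.7% of TRAV. Joins with 8 or more unassigned nucleotides made up 5.99% of TRDV, or 27 clonotypes, and 2.64% of TRAV. The TRAV share includes TRAV9-2, where 84.7% of 242 clonotypes had 8 or more, with a mean of 10.4. Both values were the highest among the 103 V segments with at least 50 clonotypes. The next highest were 10.5% and 3.71, in TRAV15D-1-DV6D-1. Of the 242 CDR3s, 234 opened with the first 6 bases of the TRAV9-2 end. Why TRAV9-2 stood apart was not tested. The TRDV mean includes 7 joins with 12 or more unassigned nucleotides, up to 30, which are also those with the long δ D stretches described below. The 2 results therefore share these joins, and the difference without them was not tested. TRAV17, TRAV19 and TRAV21/DV12 averaged 1.86, and TRDV exceeded them by 1.04 ± 0.347 in 8 of 8 mice (exact p = 0.00781). With the junction recounted from the germline ends of all V segments and J segments, the difference to all TRAV was 0.536 ± 0.275 in 8 of 8 mice (exact p = 0.00781).

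**Figure D4:**
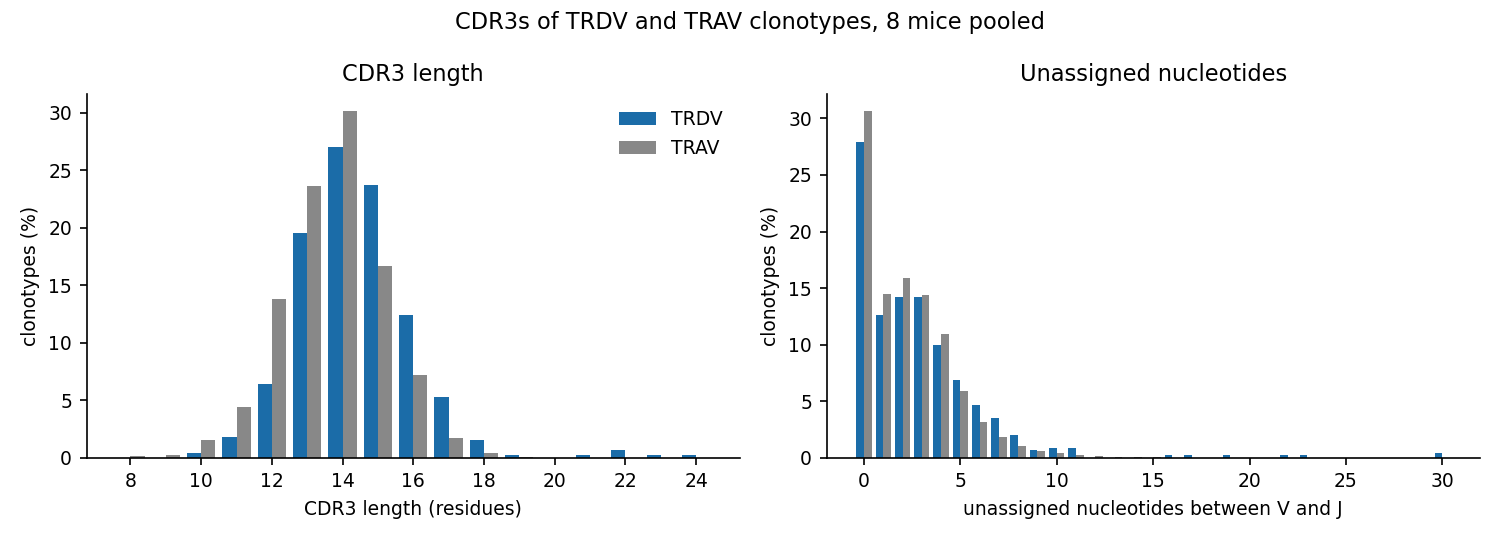
Share of clonotypes (%) by CDR3 length in residues (left) and by unassigned nucleotides (right), for 451 TRDV and 52798 TRAV clonotypes of 8 mice. Both TRDV distributions have a tail to the right of TRAV, and 5.99% of TRDV against 2.64% of TRAV joins have 8 or more unassigned nucleotides. TRAV joins beyond the axes, up to 48 residues and 103 nucleotides, are not drawn.

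Some of the long TRDV joins held stretches of a δ D segment. Among joins with at least 6 unassigned nucleotides, 9 of 64 TRDV clonotypes contained at least 6 bases in a row of TRDD1 or TRDD2 between V and J, against 122 of 4036 TRAV clonotypes. Within TRAV it was 13 of 290 for dual-use TRAV/DV segments and 3 of 136 for TRAV17, TRAV19 and TRAV21/DV12. The longest stretch was one of TRDD2 in all 9 TRDV clonotypes. In 1 of them, the TRDV1-TRAJ49 join, 6 bases also matched TRDD1, and these overlap its TRDD2 stretch. Of the 9 clonotypes, 6 carried the TRDV2-2 end, out of 18 such joins, and 3 were TRDV1, out of 42.

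By mouse, the counts were 1 of 7, 1 of 7 and 0 of 10 in the CTXpre mice. They were 1 of 5, 2 of 15, 1 of 5, 1 of 7 and 2 of 8 in the CTXpre/CD4post mice. The mean share was 15.1% for TRDV and 3.07% for TRAV, and the difference was 12.1 ± 7.36 percentage points (SD, n = 8), higher in 7 of 8 mice, with exact sign-flip p = 0.0156 and adjusted p = 0.0195. CTXpre mouse 3, with none, was the exception. The shares rest on 5 to 15 joins per mouse.

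With a longer stretch the contrast in counts widened. At least 8 bases in a row were found in 7 of 64 TRDV joins and in 6 of 4036 TRAV joins, but the 7 TRDV joins came from 5 of the 8 mice and the exact sign-flip p was 0.0625. TRAV9-2, with its many unassigned nucleotides, was kept among the TRAV joins here, and its part in these counts was not tested. All 7 TRDV joins with 12 or more unassigned nucleotides held such a stretch, against 5 of 184 TRAV joins of that length. Among the TRAV joins of that length, 2 of 7 with dual-use TRAV/DV segments held one. So did 1 of 4 with TRAV17, TRAV19 or TRAV21/DV12, and TRAV21/DV12 counts in both sets. In contrast, 0 of 57 TRDV joins with 6 to 11 unassigned nucleotides held at least 8 bases, against 1 of 3852 TRAV joins. At least 6 bases were held by 2 of these 57 TRDV joins and 109 of these 3852 TRAV joins. The other 7 TRDV joins with at least 6 bases were those with 12 or more unassigned nucleotides.

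The 7 joins with at least 8 bases of TRDD2 were all in CTXpre/CD4post mice, as was seen after the values were known. These mice held 1, 2, 1, 1 and 2 of them, out of 5, 15, 5, 7 and 8 joins with at least 6 unassigned nucleotides, and each of the 5 mice had at least 1. The CTXpre mice held 0 of 7, 0 of 7 and 0 of 10, or 0 of 24 together. An upper limit of 12.5%, taken as 3 over the 24 pooled joins, leaves out the spread between mice. The TRDV minus TRAV share was 18.4 ± 4.84 percentage points (SD, n = 5) against −0.112 ± 0.194 (SD, n = 3), so the groups did not overlap, and the exact Mann–Whitney test gave p = 0.0357, the smallest the design allows. With the minimum of 6 bases the groups overlapped (exact p = 0.25), and 6 of the 7 joins were seen in 1 read. Among joins of 2 or more reads, 1 of 10 remained in the CTXpre/CD4post mice, in 1 mouse, against 0 of 5 in the CTXpre mice.

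Counted among the unassigned nucleotides, the stretches printed above were 15 of the 16 bases of TRDD2 in the TRDV2-TRAJ42 join and 14 in the TRDV1-TRAJ49 join. They were 14 in the TRDV2-TRAJ58 join and 13 in the TRDV2-TRAJ57 join. In the TRDV2-TRAJ57 join the bases g and a that follow, assigned to J, also continue TRDD2. The 3 TRDV2 joins start with the whole TRDV2-2 end. The TRDV1-TRAJ49 join had 3 reads in CTXpre/CD4post mouse 4, and the other 8 clonotypes with a stretch had 1 read each. Without clonotypes of 1 read the difference was 0.296 percentage points (exact p = 1).

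**Figure D5:**
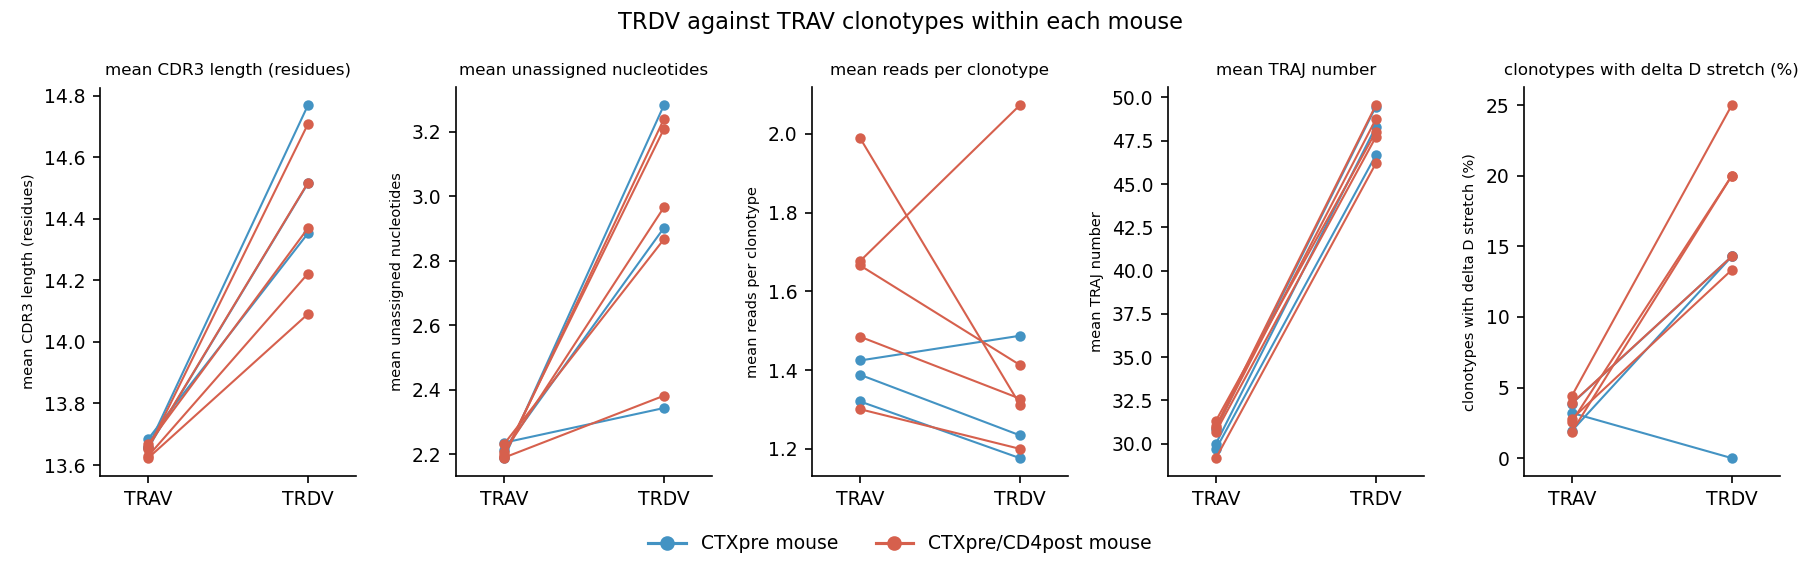
TRAV and TRDV values of each mouse joined by a line, for mean CDR3 length (residues), mean unassigned nucleotides, mean reads per clonotype, mean TRAJ number and the share (%) of joins with a stretch of at least 6 bases of a δ D segment among those with at least 6 unassigned nucleotides. Lines rise in all 8 mice for length, unassigned nucleotides and TRAJ number, in 7 of 8 for the D stretch and in 2 of 8 for reads; vertical axes do not start at 0.

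For the other contrasts, and for the D stretch with a minimum of 6 bases, a difference between the groups was not detectable. The TRDV minus TRAV difference in CDR3 length was 0.879 ± 0.221 in CTXpre and 0.736 ± 0.230 in CTXpre/CD4post mice (exact Mann–Whitney p = 0.393). For unassigned nucleotides it was 0.629 ± 0.496 and 0.728 ± 0.346 (exact p = 1). For the D stretch of at least 6 bases it was 6.52 ± 8.48 and 15.4 ± 4.66 percentage points (exact p = 0.25). Over the TRDV clonotypes themselves, mean CDR3 length differed by −0.164 residues (exact p = 0.571) and mean unassigned nucleotides by 0.0897 (exact p = 1), CTXpre/CD4post minus CTXpre.

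TRDV clonotypes were mostly rare. Of the 451, 365 were seen in 1 read (80.9%), against 75.3% of TRAV clonotypes. Reads per TRDV clonotype were 1.23, 1.18 and 1.49 in the CTXpre mice and 2.07, 1.20, 1.33, 1.41 and 1.31 in the CTXpre/CD4post mice. TRAV values were 1.39, 1.32 and 1.42, and 1.68, 1.301, 1.48, 1.67 and 1.99. TRDV was lower in 6 of 8 mice, by −0.128 ± 0.300 on average (TRDV minus TRAV, exact sign-flip p = 0.273, adjusted p = 0.273).

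The largest differences were those of CTXpre/CD4post mouse 1, at 0.396, and mouse 5, at −0.677. The abundant TRDV1-TRAJ45 clonotype printed above, with 7 unassigned nucleotides, had 35 reads in CTXpre/CD4post mouse 1, which was 30.7% of the TRDV reads of that mouse. It was the only TRDV clonotype with at least 10 reads, whereas a mouse had 12 to 102 such TRAV clonotypes. Without CTXpre/CD4post mouse 1, TRDV had −0.203 reads per clonotype relative to TRAV (exact sign-flip p = 0.0313), and without mouse 5 it had −0.0499 (exact p = 0.547). Without the most abundant TRDV clonotype of each mouse, a comparison added after seeing the data that trims TRDV alone, the difference was −0.278 ± 0.225, lower in 8 of 8 mice (exact p = 0.00781).

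The same sequence had 5 reads in CTXpre/CD4post mouse 2 and 0 in the other 6 mice. These 2 libraries also shared the most TRAV sequences of any pair, 337 against 188 to 333 in the other 27 pairs, and how a sequence came to be in both was not tested. Shares of shared sequences are given with and without mouse 2.

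The most abundant TRDV clonotypes of the other mice were smaller. They were TRDV1 joins to TRAJ45 with 4 reads in CTXpre mouse 1, to TRAJ35 with 3 in CTXpre mouse 2 and to TRAJ56 with 9 in CTXpre mouse 3. In CTXpre/CD4post mice 3 to 5 they were TRDV2 joins to TRAJ47 with 5, to TRAJ57 with 4 and to TRAJ52 with 8. TRDV1 thus supplied the leading clonotype in all 3 CTXpre mice and in CTXpre/CD4post mice 1 and 2, and TRDV2 in the other 3.

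Sharing between mice is given as a description without a test, and its direction depended on the scale. Of 436 distinct TRDV sequences with V and J names, 13 were in 2 or more mice (2.98%), against 6.52% of 48204 TRAV sequences. Without CTXpre/CD4post mouse 2 it was 8 of 352 (2.27%) against 6.00%. Among sequences joined to TRAJ42 or a higher number it was 3.09% against 6.31%, and 2.11% against 5.68% without mouse 2. Scaled instead per 1000000 pairs of sequences between 2 mice, TRDV was at 0 in 15 of 28 pairs of mice and above TRAV in the other 13. In those 13 pairs TRDV had 174 to 977 shared sequences per 1000000 pairs, whereas TRAV had 5.19 to 7.52 over all pairs. The classes differ greatly in size, and a TRDV value above 0 rests on 1 to 3 shared sequences. At these sizes 1 shared TRDV sequence puts a pair of mice above TRAV, so the 13 pairs are simply those that share any.

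Shared TRDV sequences were mostly those without unassigned nucleotides. Of the 13, 10 had 0 unassigned nucleotides, and 8.77% of all TRDV sequences with 0 were shared, against 12.7% for TRAV. Without CTXpre/CD4post mouse 2 it was 7 of 8, with 7.69% against 11.8%. With 1 or more unassigned nucleotides, 3 of 322 TRDV sequences were shared (0.932%), against 4.13% for TRAV, and without mouse 2 it was 1 of 261 (0.383%), against 3.70%. None of the TRDV sequences reached 4 mice under its deposited name, while TRAV sequences reached 8.

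Since the TRDV2 names are crossed, sharing was also counted without the V name. Then 14 of 433 sequences were in 2 or more mice, and 10 of 349 without CTXpre/CD4post mouse 2. The shared TRDV2-TRAJ49 clonotype, which starts with the whole TRDV2-2 end and has 0 unassigned nucleotides in the deposited positions, was in 5 mice with 6 reads in all. It had 2 reads in CTXpre mouse 1 and 1 read in each of CTXpre mouse 2 and CTXpre/CD4post mice 2, 4 and 5, under the name TRDV2-2 in 3 mice and TRDV2-1 in the other 2. The shared TRDV1-TRAJ45 clonotype had 4 reads in CTXpre mouse 1, 2 in CTXpre/CD4post mouse 1 and 1 in CTXpre/CD4post mouse 2. Both were read in each group. The TRDV2-TRAJ49 clonotype had fewer than 3 reads in every mouse, as had the TRDV1-TRAJ45 clonotype in the CTXpre/CD4post mice. Such counts were not taken as different from 0, so presence in each group is not established.

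The sort could hold T cells other than conventional αβ cells, and their joins were counted beside the TRDV joins. Joins to a δ J segment were 3 clonotypes of 1 read, each with a TRAV name and each in a different mouse, and TRDV joined to a δ J segment was at 0, as were γ J joins. In α-chain libraries, δ and γ chains are not amplified on purpose, so these counts do not measure γδ T cells. Joins of TRAV11 with TRAJ18, which mark invariant NKT cells, had 2 to 25 reads per mouse, and those of TRAV1 with TRAJ33, which mark MAIT cells, had 0 to 6. Their part in the TRDV values was not tested.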

How the data were processed

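TCR α-chains of 8 mice were analysed. Per the study's methods, the authors made nested PCR products of TCR RNA, aligned them in MiXCR, and used VDJtools to split the chains and thin all libraries to 10000 reads. They deposited a count per clonotype, and a fraction that is this count over 10000. The MiXCR version and reference library are not given in the sources used here. The labels name the build mm10 and bcl2fastq. β-chain libraries were not analysed here. Down-sampling and PCR limit precision, as most clonotypes rest on 1 read.

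V and J names were looked up in the GENCODE vM21 annotation and germline ends were read from RefSeq's GRCm38 genome, and all 116 V names were found. Unassigned nucleotides are the deposited J start minus the V end minus 1, with negative values set to 0. Within-mouse differences were tested by an exact two-sided sign-flip test over 256 sign assignments, and groups by a Mann–Whitney test enumerated exactly over 56 splits (two-sided). Reads per V segment, with at least 10 reads in 3 mice, were tested with edgeR 4.0.16 (quasi-likelihood, Benjamini-Hochberg adjusted p under 0.05), and DESeq2 1.42.0 was an alternative (R 4.3.3, Python 3.11.15). The exact tests and the edgeR step were tested on simulated data. Named clonotypes were the most abundant of each mouse, those in the most mice and those with the longest D stretch. Replicate numbers in the labels belong to different animals. The members and lists were chosen with earlier results of these data known.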

Additional observations from a re-analysis of the deposited data

Results flagged for a closer look

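The number of TRDV clonotypes in the CTXpre/CD4post mice held a mouse that stood apart. Mouse 2 had 90, the next highest had 58 and the lowest had 46, so that the gap was 0.727 of the range, past Dixon's limit of 0.71 for 5 samples. Of 9 quantities checked in this way 1 was past its limit, and chance flags about 1 in 20 groups. This mouse also had the most α-chain clonotypes, 7695, and its TRDV reads, 108, were below those of mouse 1. Without it, the difference in TRDV clonotypes between groups was 0.417.

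Joins with at least 8 bases of a δ D segment were seen, for TRDV, in CTXpre/CD4post mice and not in CTXpre mice, and 6 of these 7 joins rest on 1 read. The share among joins with at least 6 unassigned nucleotides, TRDV minus TRAV, was 18.5 percentage points higher in CTXpre/CD4post mice (7 of 40 TRDV joins in 5 of 5 mice) than in CTXpre mice (0 of 24 in 3 mice), with p = 0.0357 in the exact Mann–Whitney test, the smallest that 3 mice against 5 allow. The minimum of 8 bases was chosen after the values were seen, and with 6 bases the group difference was 8.89 points (exact p = 0.25, adjusted p = 0.714 over 5 measures). Among joins of 2 or more reads, 1 of 10 in CTXpre/CD4post mice and 0 of 5 in CTXpre mice held such a stretch, so the difference rests on clonotypes of 1 read. Leaving out any 1 mouse, of either group, leaves too few mice to pass 0.05.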

How the results depend on the processing

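Without clonotypes of 1 read the difference in D stretch was 0.296 points (exact p = 1), with a stretch of 7 bases 10.9 (exact p = 0.0625). Settings added after seeing the data gave 11.4 with 8 bases (exact p = 0.0625), 8.44 with the deposited D names (exact p = 0.25), 4.22 for TRDV1 alone (exact p = 0.281) and 24.8 for TRDV2 alone (exact p = 0.125). Medians gave 0.125 residues for CDR3 length and 0.188 for unassigned nucleotides. TRAJ number exceeded that of TRAV17, TRAV19 and TRAV21/DV12 by 0.881. CDR3 length against dual-use segments, also added later, was −0.124. Reads per clonotype differed by −0.278 without each mouse's most abundant TRDV clonotype and by −0.235 for TRDV2 alone (exact p = 0.0156), both added later. The group difference in unassigned nucleotides, 0.0897, was −0.767 with medians and −0.0599 with negative values kept. The cause of these changes was not tested.

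With 1 mouse left out in turn, TRDV minus TRAV ranged from 0.744 to 0.836 residues, 0.634 to 0.774 unassigned nucleotides, −0.203 to −0.0499 reads per clonotype, 17.5 to 17.8 in TRAJ number and 10.9 to 14.3 points of D stretch. Group differences ranged from 12.6 to 26.4 reads, 0.417 to 14.4 clonotypes, −0.261 to −0.0526 residues and −0.160 to 0.309 unassigned nucleotides. Log2 read differences ranged from 0.09 to 0.49 (TRDV1), 0.80 to 1.21 (TRDV2-1) and −0.0625 to 0.49 (TRDV2-2), TRDV2-2 turning without CTXpre mouse 2. Calls over V segments were 0 under all 13 alternatives.

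Same-numbered mice did not deviate together (correlations −0.0995, 0.0392 and −0.0578). With replicate number as a block, group differences over 3 pairs were 34 reads (exact p = 0.25), 16.3 clonotypes (exact p = 0.5), −0.269 residues (exact p = 0.25) and −0.105 unassigned nucleotides (exact p = 0.75), and edgeR called 0 V segments.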
